A study of Homo sapiens with 6 samples.

Results

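The genes of the ATP-binding cassette (ABC) transporter family were followed in RNA sequencing libraries of U87-MG, a human glioma cell line. Members were the genes whose deposited symbol is ABC, a subfamily letter from A to G and a number, which gave 46 of the 61806 genes in the table. Subfamily A held 12 members, B held 9, C held 12, D held 4, E held 1, F held 3 and G held 5. TAP1, TAP2 and CFTR belong to the same family under other symbols and were kept outside the members.

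The series compared 3 libraries labelled NC (negative control), with a wildtype genotype, with 3 libraries labelled as GRIK1 knockdown and GRIK1 siRNA. GRIK1 encodes a kainate-type glutamate receptor, and the stated purpose was to find what changes downstream of its loss in glioblastoma. The labels and the study's methods name a transfected siRNA, whereas the design text names an shRNA. The libraries labelled GRIK1 siRNA carry the numbers 1 to 3, which may stand for replicates or for siRNA sequences. The study's text says that the sequence named siRNA1 was carried forward after the siRNAs had been compared, and the labels do not settle which was used in each library. The labels do not say that the libraries came from separate cultures, so p-values measure the spread between these libraries, which may be technical. U87-MG is 1 cell line, and in bulk libraries fewer cells of a type and less RNA per cell cannot be told apart.

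The study's text reports an efficient knockdown of GRIK1 in U87-MG cells, measured apart from these libraries. In these libraries GRIK1 itself had low counts, which resolve a change poorly. It was counted 18, 9 and 8 times in NC, and 15, 20 and 20 times under the GRIK1 siRNA label. Its mean FPKM (the count scaled to the library total and the exonic length) was 0.233 ± 0.131 (SD, n = 3) in NC and 0.340 ± 0.0436 (SD, n = 3) under that label. The groups overlapped, and the mean was not lower under the knockdown label (difference 0.12 on log2(FPKM + 1), p = 0.4, two-sided exact permutation test, with 0.1 the smallest p that 3 against 3 allows). The second group is therefore named by its label below, as the siRNA-labelled libraries.

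Total counts lay between 11099909 and 14006968 per library. NC library 3 stood apart: its correlation with the other libraries was 0.952 to 0.968, against at least 0.98 among the other 5. Genes of ribosomal proteins took 8.451% of its counts and 4.349% to 4.991% in the others. The 6 glioma and mesenchymal markers summed to 987.3 to 1442 FPKM in NC and 1653 to 1702 under the siRNA label. VIM lay at 824.6 to 1076 and NES at 0.21 to 0.69. SPARC was called higher under that label (log2 fold change 1.80, adjusted p = 0.0191 in edgeR), with means of 115.7 and 422 FPKM. TNC had 24.78 FPKM in NC library 3 and 144.2 to 163 in the others. The log2 fold changes of VIM, CD44, TNC and EGFR were -0.022, -0.19, 0.50 and 0.34, none of them called. CD44 was called lower without NC library 3 (-0.28, adjusted p = 0.000205 in edgeR). Of 6 astroglial markers, GFAP, S100B, AQP4 and SOX2 stayed under 0.5 FPKM in each library, OLIG2 had 0.41 to 0.83 and SLC1A3 had 2.0 to 3.48 and was called lower (adjusted p = 0.0378). Endothelial markers (0.02 to 0.09 FPKM summed over 4 genes) and hepatocyte markers (0.09 to 0.31 over 3) were near 0, whereas 4 immune markers summed to 2.11 to 4.07, nearly all of it CD68, and 3 neuronal markers to 1.88 to 2.81, with SNAP25 at 1.45 to 2.15. The part of these markers in the results on the members was not tested. The main results on the members are therefore given with all 6 libraries and without NC library 3, which leaves 2 NC libraries. Most marker calls are given with all 6 libraries only, and many partner calls only without NC library 3.

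ABC transporters are membrane proteins that bind and hydrolyse ATP to move a substrate across a membrane. Subfamilies A and G mostly carry sterols and phospholipids, members of B, C and G export drugs and conjugated metabolites, and others serve mitochondria, lysosomes or peroxisomes. Subfamilies E and F keep the ATP-binding domains, lack membrane-spanning parts and act on ribosomes. In glioblastoma the family is best known for drug efflux, both at the blood-brain barrier and in tumour cells.

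Start regions were read from RefSeq (GRCh38.p14) for 35 of the 46 members. The runs below belong to both members called with all 6 libraries, ABCA7 and ABCC9, and to the most abundant member, ABCA1. Each is written 5′ to 3′ on the strand of its gene. Capitals mark the GC box GGGCGG or its reverse complement CCGCCC, and the E box CACGTG.
ABCA7, chr19:1039857-1039996, plus strand: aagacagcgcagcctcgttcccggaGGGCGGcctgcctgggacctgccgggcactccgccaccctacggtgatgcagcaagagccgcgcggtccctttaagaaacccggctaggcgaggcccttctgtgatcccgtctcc
ABCC9, chr12:21941427-21941676, minus strand: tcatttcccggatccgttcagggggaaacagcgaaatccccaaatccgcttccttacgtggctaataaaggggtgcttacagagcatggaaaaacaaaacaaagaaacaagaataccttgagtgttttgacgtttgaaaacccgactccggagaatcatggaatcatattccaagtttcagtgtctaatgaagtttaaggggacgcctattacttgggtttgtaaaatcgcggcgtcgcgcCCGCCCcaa
ABCA1, chr9:104928238-104928405, minus strand: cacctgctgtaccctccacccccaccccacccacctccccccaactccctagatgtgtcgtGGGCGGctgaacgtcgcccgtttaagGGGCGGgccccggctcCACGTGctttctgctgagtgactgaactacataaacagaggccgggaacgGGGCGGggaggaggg

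The ABCA1 run holds 3 GC boxes and 1 E box in 168 bases with a GC content of 66.1%. The ABCA7 run holds 1 GC box in 140 bases (67.9% GC), and the ABCC9 run 1 GC box in 250 bases (46.0% GC). Bases from the annotated starts onward were left out, and the ABCC9 run lies inside the gene as the deposited table bounds it, upstream of the RefSeq start. In the whole windows, searched on both strands, GGGCGG was found in 18 of the 35 members with a window and in 44.6% of 27305 genes. Among the 20 tested members with a window it was found in 15, whereas the share of genes is not limited to tested genes. CACGTG was found in 4 of the 35 (ABCA1, ABCB6 and ABCF1 among the tested) and in 7.43% of genes. TATAAA was found in 5 of the 35 (ABCA1, ABCC2 and ABCC5 among the tested) against 12% of genes. AGGTCA was found in 2 (ABCD4 and ABCF1) against 13.9%, and TGACTCA in 1 (ABCA5) against 4.92%. None of these motifs contains another, and a match describes the window without showing that a factor binds there.

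Levels between genes were compared on FPKM, which is scaled to gene length. Of the 46 members, 24 reached a mean of 0.5 FPKM over the 6 libraries and were tested. The other 22 had lower means, of at most 0.262 FPKM, and the lowest tested member had 0.632. Of those 22, ABCC8 and ABCC13 had 0 counts in each library, 13 had 1 to 9 counts over all 6 libraries, and 7 had at least 10. A count of 0 in a library still allows up to 3 counts (95% limit, counting error only).

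ABCA1 was the most abundant member, with a mean of 54.5 FPKM over the 6 libraries. ABCE1 followed at 17.9, ABCC2 at 13.8, ABCF3 at 13.4 and ABCF1 at 10.9 FPKM, and these 5 were the members above 10 FPKM. Below ABCA1 the ranges over the libraries overlapped between neighbours in this order. Within each library ABCE1 lay above ABCF3, and ABCF3 above ABCF1. The place of ABCC2 relative to ABCE1 and ABCF3 changed between libraries and is not resolved. ABCA1 alone made up 17.4% to 26.1% of the summed FPKM of the family in the NC libraries and 32.3% to 32.9% in the siRNA-labelled libraries.

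**Figure D1:**
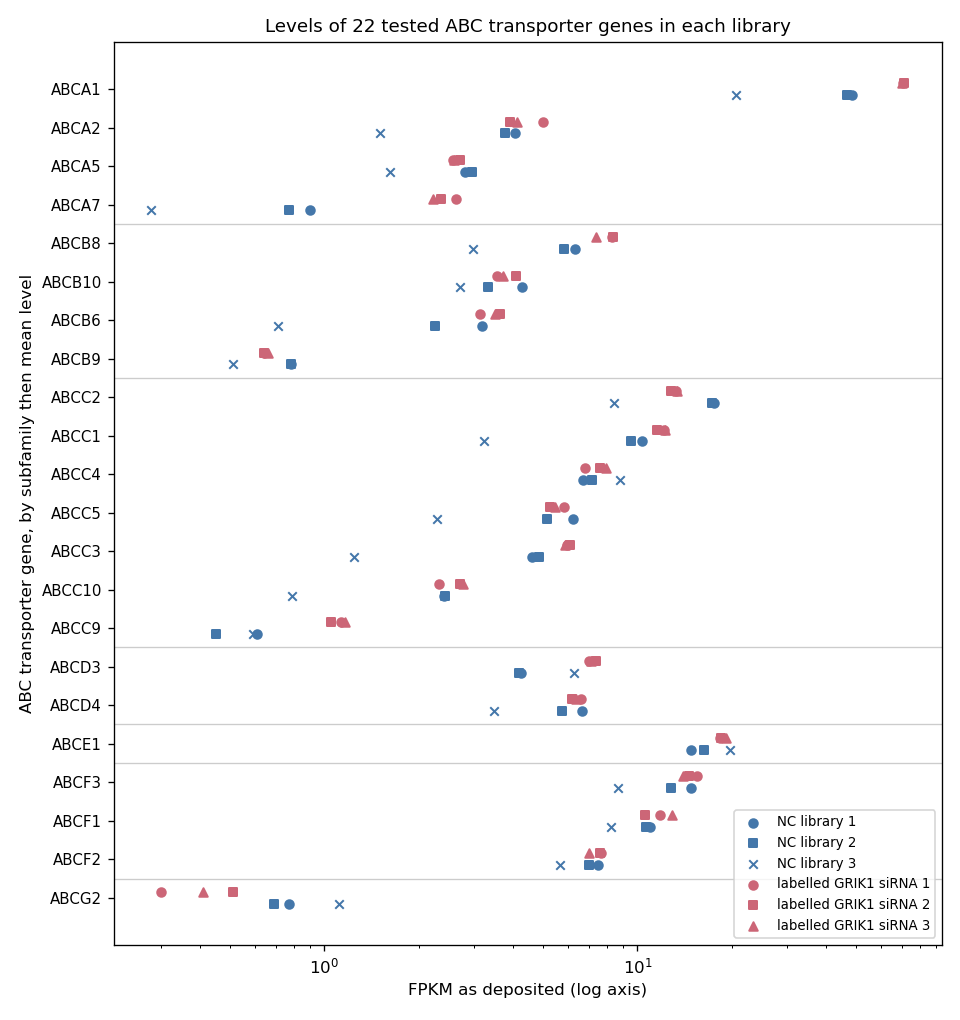
FPKM as deposited (log axis) of 22 of the 24 tested ABC transporter genes in each of the 6 libraries, grouped by subfamily; blue marks NC, red marks the siRNA-labelled libraries. ABCA1 lies between 20.58 and 71.18 FPKM, above each other member in each library, and NC library 3 (crosses) lies apart from NC libraries 1 and 2 for most genes.

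With all 6 libraries, ABCA7 and ABCC9 were higher in the siRNA-labelled libraries, and no member was lower. These are 2 of 24 tested members past an adjusted p of 0.05 in the quasi-likelihood test of edgeR, where 1.61% of 15870 tested genes were called higher and 1.48% lower. ABCA7 was also the 1 member past an absolute log2 fold change of 1, where 1.41% of all tested genes passed both limits. At an unadjusted p under 0.05 there were 5 members, which were these together with ABCA1, ABCB8 and ABCG2, and 25.1% of all tested genes passed the same limit, so this count is no result about the members. DESeq2 called ABCA7, ABCC9 and ABCA1 as higher and ABCG2 as lower, where it called 5.88% of 14638 genes higher and 5.57% lower. The median log2 fold change of the 24 members was 0.20, against -0.02 over all tested genes, with 18 members above 0 and 6 below.

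Leaving out NC library 3 gave 11 called members. The 8 higher ones were ABCA1, ABCA7, ABCB8, ABCC1, ABCC3, ABCC9, ABCD3 and ABCE1, where 16.9% of all tested genes were called higher. The 3 lower ones included ABCC2 and ABCG2, where 18.3% of all tested genes were called lower. The median log2 fold change of the members was then 0.08, against 0.0071 over all tested genes. Leaving out any 1 of the other 5 libraries left 0 members past the threshold, ABCA7 and ABCC9 included.

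By the deposited FPKM alone, 7 tested members did not overlap between the groups and were higher in the siRNA-labelled libraries, and 1 was lower. The same held for 23.4% of all tested genes on the higher side and 14.9% on the lower side, so the higher count lay near the background. Without NC library 3 the members were 8 higher and 5 lower, where 30.4% and 26% of all tested genes did not overlap. On TMM-scaled values 6 were higher and 1 lower, because ABCD3 then overlapped, where 19.4% and 19.1% of all tested genes did not overlap.

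NC library 3 moved with much of this. It was the lowest NC library for 18 of the 24 members and the highest for 5. The median ratio of its FPKM to the mean of NC libraries 1 and 2 was 0.564 over the members and 0.856 over all tested genes. The tested members are long genes, with a median exonic size of 8358 bases against 4070 over all tested genes. Removing a length trend moved the median log2 fold change of the members from 0.20 to 0.18. It left 1 member called, ABCA7, where 399 of all 15870 tested genes were called. The part of NC library 3 and of transcript length in the size of the fold changes was not tested.

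**Figure D2:**
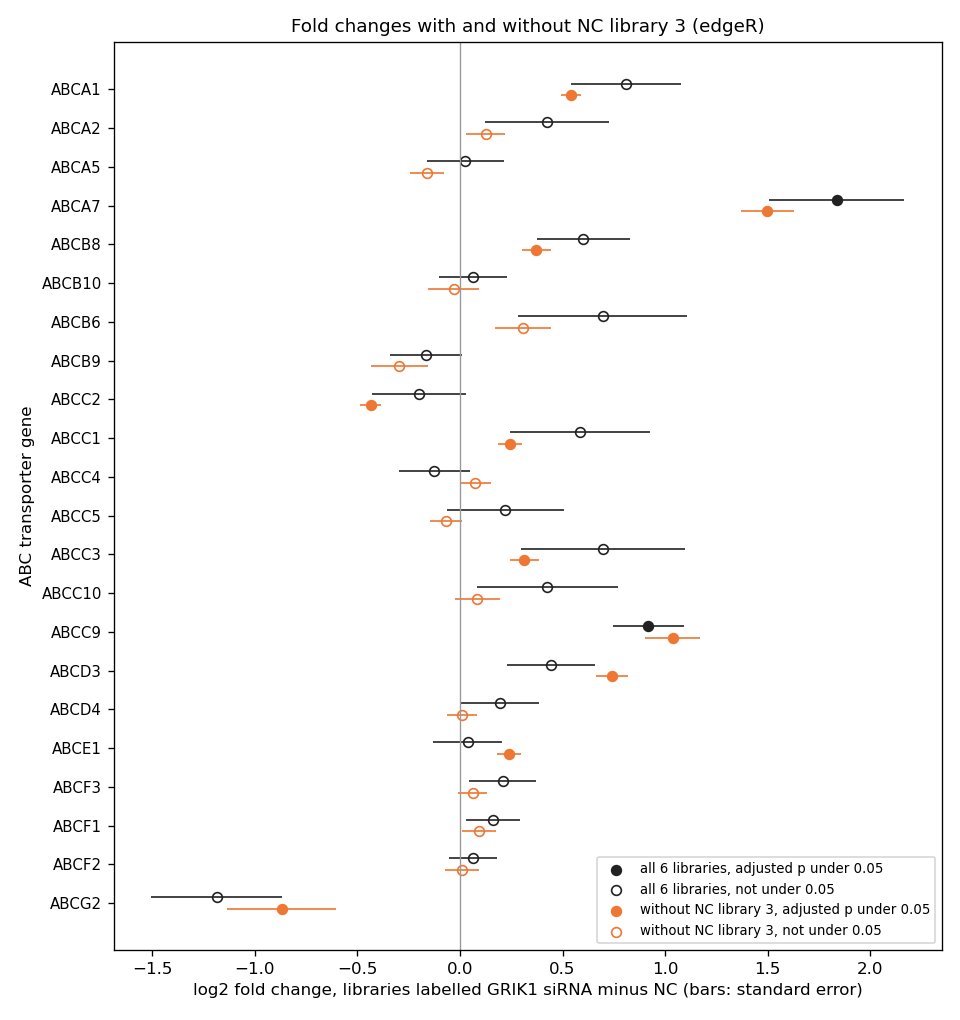
Log2 fold change (siRNA-labelled libraries minus NC, bars 1 standard error) of 22 of the 24 tested members, with all 6 libraries in black and without NC library 3 in orange; filled points have an adjusted p under 0.05. ABCA7 (1.84) and ABCC9 (0.92) are the filled black points, and bars shorten for most members once NC library 3 is left out.

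Among the sterol and lipid transporters, ABCA7 was called higher in the siRNA-labelled libraries, ABCA1 was called higher once NC library 3 was left out, and most other members of this role were close to 0 counts. Of 17 members with this role, 4 were tested. With all 6 libraries 1 was called higher, as were 1.61% of all tested genes. Without NC library 3, 2 were called higher, as were 16.9% of all tested genes. None of the 4 was called lower in either fit, at an unadjusted p under 0.05 or in DESeq2.

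ABCA7 (ENSG00000064687, chr19:1039997-1065572, plus strand) encodes a phospholipid transporter close in sequence to ABCA1 and is known as a risk gene for Alzheimer's disease. Its counts were 96, 82 and 38 in NC, and 313, 284 and 283 in the siRNA-labelled libraries. Its FPKM was 0.90, 0.77 and 0.28 in NC and 2.64, 2.35 and 2.23 in the siRNA-labelled libraries. Each siRNA-labelled library lay above each NC library, and NC library 3 was the lowest. Its log2 fold change was 1.84 (SE 0.33, adjusted p = 0.0387). With NC library 3 left out it was 1.5 (SE 0.13, adjusted p = 1.29e-07). Leaving out any other library gave log2 fold changes of 1.77 to 2.12, with adjusted p from 0.0677 to 0.219.

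ABCA1 (ENSG00000165029, chr9:104781006-104928155, minus strand) exports cholesterol and phospholipid to apolipoproteins and starts the formation of high-density lipoprotein. Its FPKM was 48.44, 46.75 and 20.58 in NC and 70.48, 71.18 and 69.84 in the siRNA-labelled libraries. The groups did not overlap, the siRNA-labelled libraries spread over less than 2 FPKM, and NC library 3 lay far below the other NC libraries. The fitted change on the log2 scale was 0.81 (SE 0.27) and missed the threshold (adjusted p = 0.129). Without NC library 3 it was 0.54 (SE 0.05, adjusted p = 1.25e-07).

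ABCA2, a transporter of endosomes and lysosomes best known in oligodendrocytes, had 4.07, 3.78 and 1.51 FPKM in NC and 5.01, 3.93 and 4.12 in the siRNA-labelled libraries. ABCA5, a lysosomal member, had 2.82, 2.96 and 1.62 FPKM in NC and 2.58, 2.72 and 2.59 in the siRNA-labelled libraries. Both overlapped between the groups with all 6 libraries, ABCA5 did not overlap without NC library 3, and neither was called in either fit. ABCA5 lies on the minus strand of chromosome 17 beside ABCA6, ABCA8, ABCA9 and ABCA10. Of these 5 neighbours ABCA5 was the tested one, ABCA10 had 0.09 to 0.46 FPKM, and ABCA6, ABCA8 and ABCA9 had 6, 3 and 1 counts over the 6 libraries.

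The remaining subfamily A members were not tested. ABCA12, a lipid transporter of keratinocytes, had 0.19 to 0.42 FPKM, and ABCA3, which loads surfactant lipid in the lung, had 0.15 to 0.23. ABCA4, the retinoid-lipid transporter of photoreceptors, had 20 counts in all and ABCA13 had 9. ABCB4, which moves phosphatidylcholine into bile, was counted 6, 5 and 5 times in NC and 4, 2 and 1 times in the siRNA-labelled libraries. With all 6 libraries it was the only untested member with at least 10 counts whose FPKM did not overlap between the groups, and counts of this size cannot separate them. ABCA10 did not overlap either once NC library 3 was left out, with 0.35 and 0.46 FPKM in NC and 0.14 to 0.16 in the siRNA-labelled libraries.

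The sterol transporters of subfamily G were near 0 counts. ABCG1, which passes cholesterol to lipoproteins beside ABCA1 in many cells, had 3 counts over the 6 libraries, and its brain relative ABCG4 had 4. ABCG5 and ABCG8, which form the sterol exporter of liver and gut, had no count in NC and 1, 2 and 4, and 0, 3 and 1, in the siRNA-labelled libraries. The groups did not overlap for ABCG5, with 7 counts in all, and overlapped for ABCG8. Counts this small cannot resolve a difference. The bodies of these neighbouring genes share a stretch of chromosome 2.

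**Figure D3:**
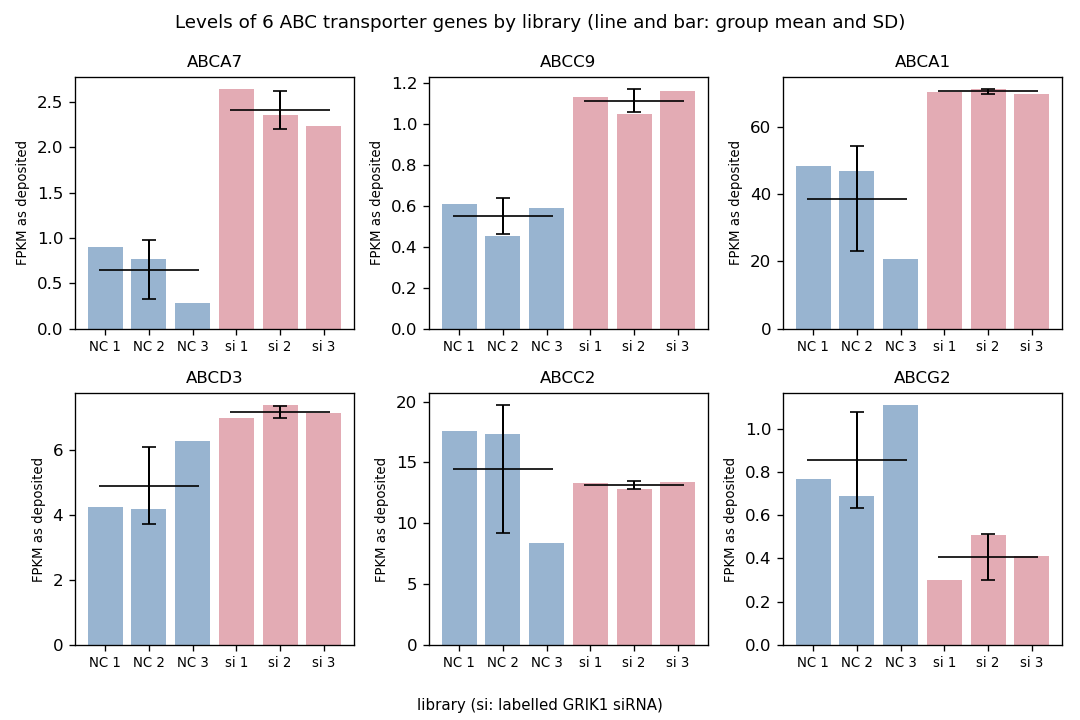
FPKM as deposited of ABCA7, ABCC9, ABCA1, ABCD3, ABCC2 and ABCG2 in each library (bars from 0; black line and error bar are the group mean and SD, n = 3). ABCA7, ABCC9, ABCA1 and ABCD3 are higher in each siRNA-labelled library than in each NC library, ABCG2 is lower, and ABCC2 falls between NC library 3 and the other NC libraries.

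ABCC9 was the other member called with all 6 libraries. It encodes SUR2, the sulfonylurea receptor that surrounds the pore of ATP-sensitive potassium channels and regulates it rather than moving a substrate (ENSG00000069431, chr12:21797389-21942543, minus strand). Its counts were 119, 88 and 144 in NC and 245, 231 and 268 in the siRNA-labelled libraries. Its FPKM was 0.61, 0.45 and 0.59 in NC and 1.13, 1.05 and 1.16 in the siRNA-labelled libraries. The groups did not overlap, and NC library 3 lay between NC libraries 1 and 2. edgeR gave a log2 fold change of 0.92 (SE 0.17, adjusted p = 0.0416) and 1.04 without NC library 3 (SE 0.13, adjusted p = 1.19e-05). Leaving out any other library gave adjusted p from 0.0798 to 0.226, and removing the length trend gave 0.72 (adjusted p = 0.091). The related receptor ABCC8 (SUR1) had 0 counts in each library.

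Of 13 members with the role of drug, conjugate and bile salt efflux, 7 were tested, and edgeR called none with all 6 libraries. ABCG2 was past an unadjusted p of 0.05 in edgeR and was called in DESeq2 (adjusted p = 0.0216). Without NC library 3, ABCC1 and ABCC3 were higher and ABCC2 and ABCG2 lower.

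ABCG2, the breast cancer resistance protein, exports many anticancer drugs and marks side-population cells (ENSG00000118777, chr4:88090150-88231628, minus strand). Its counts were 48, 43 and 87 in NC and 21, 36 and 30 in the siRNA-labelled libraries. Its FPKM was 0.77, 0.69 and 1.11 in NC and 0.30, 0.51 and 0.41 in the siRNA-labelled libraries. It was the 1 tested member lower in each siRNA-labelled library than in each NC library, and here NC library 3 was the highest. The log2 fold change was -1.19 (SE 0.32) and missed the threshold (adjusted p = 0.0868). With NC library 3 left out it was -0.87 (SE 0.27, adjusted p = 0.0168).

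ABCC2, an exporter of conjugated compounds known from the bile canaliculus, was the most abundant member of subfamily C. Its FPKM was 17.61, 17.36 and 8.39 in NC and 13.28, 12.81 and 13.37 in the siRNA-labelled libraries. The siRNA-labelled libraries lay between NC library 3 and the other NC libraries. Its log2 fold change was -0.20 (SE 0.23, adjusted p = 0.606), and -0.44 without NC library 3 (SE 0.05, adjusted p = 4.62e-06).

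ABCC1, the first described multidrug resistance protein, exports glutathione conjugates and leukotrienes. Its FPKM was 10.33, 9.53 and 3.23 in NC and 12.12, 11.52 and 12.27 in the siRNA-labelled libraries. The groups did not overlap. The fitted change on the log2 scale was 0.58 (SE 0.34, adjusted p = 0.316), and 0.24 without NC library 3 (SE 0.06, adjusted p = 0.00363).

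ABCC3, which exports conjugated organic anions, had 4.60, 4.85 and 1.24 FPKM in NC. It had 5.94, 6.11 and 5.88 FPKM in the siRNA-labelled libraries, all above NC. edgeR gave a log2 fold change of 0.70 (SE 0.40, adjusted p = 0.306), and 0.31 without NC library 3 (SE 0.07, adjusted p = 0.00211). For ABCC1 and ABCC3 the fold change on the log2 scale was thus more than 2 times as large with NC library 3 as without it.

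ABCC4 and ABCC5, exporters of cyclic nucleotides, and ABCC10 overlapped between the groups and were called in neither fit. ABCC4 had 6.72 to 8.79 FPKM over the 6 libraries, ABCC5 had 2.29 to 6.23 and ABCC10 had 0.79 to 2.77. NC library 3 was the highest of all 6 libraries for ABCC4 and the lowest for ABCC5 and ABCC10.

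ABCB1, the P-glycoprotein of the blood-brain barrier, was counted 8 times over the 6 libraries and never above 4 in one. Its relatives ABCB5 and ABCB11, the bile salt export pump, had 3 and 4 counts. ABCC6, which releases ATP from hepatocytes, had 0.08 to 0.33 FPKM and overlapped between the groups. Its near-copies ABCC6P1 and ABCC6P2 had 7 and 11 counts against 102 for ABCC6. Reads that match several of these genes cannot be assigned with certainty, and these counts do not show how many there were. ABCC11 and ABCC12 had 19 and 1 counts, and ABCC13, a pseudogene in humans, had none.

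All 4 mitochondrial members were tested, ABCB6, ABCB8 and ABCB10 among them. None was called with all 6 libraries in edgeR or DESeq2 (1 at an unadjusted p under 0.05, ABCB8), and ABCB8 was called higher without NC library 3. ABCB8, a subunit linked to the mitochondrial potassium channel and to iron export, had 6.31, 5.83 and 2.98 FPKM in NC and 8.28, 8.33 and 7.36 in the siRNA-labelled libraries. The groups did not overlap, and NC library 3 was the lowest. The log2 fold change was 0.60 (SE 0.23, adjusted p = 0.163), and 0.37 without NC library 3 (SE 0.07, adjusted p = 0.000581).

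ABCB6, a porphyrin transporter, had 3.18, 2.26 and 0.71 FPKM in NC and 3.13, 3.64 and 3.50 in the siRNA-labelled libraries. NC library 3 was the lowest library for ABCB6, and the groups overlapped. ABCB10, which takes part in heme synthesis, had 2.71 to 4.29 FPKM and overlapped.

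The lysosomal members ABCB9, which carries peptides, and ABCD4, which carries cobalamin, overlapped between the groups and were not called with all 6 libraries in edgeR or DESeq2, nor at an unadjusted p under 0.05. ABCB9 had 0.78, 0.78 and 0.51 FPKM in NC and 0.64, 0.64 and 0.66 in the siRNA-labelled libraries, and ABCD4 had 3.49 to 6.67 over all 6. Once NC library 3 was left out, ABCB9 no longer overlapped and was lower on average, with an unadjusted p of 0.0471 in edgeR (adjusted p = 0.11).

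Of the peroxisomal members, ABCD3 was called higher once NC library 3 was left out. ABCD3, the peroxisomal membrane protein that imports branched-chain and dicarboxylic acids, had 4.26, 4.17 and 6.27 FPKM in NC and 7.0, 7.38 and 7.13 in the siRNA-labelled libraries. Each siRNA-labelled library lay above NC, and NC library 3 was the closest to them. Its log2 fold change was 0.44 (SE 0.21, adjusted p = 0.242), and 0.74 without NC library 3 (SE 0.08, adjusted p = 9.72e-07). ABCD2, a further peroxisomal member, had 8 counts over the 6 libraries.

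Of the 4 soluble members that act on ribosomes, none was called with all 6 libraries in edgeR or DESeq2, nor at an unadjusted p under 0.05, and ABCE1 was called higher without NC library 3. ABCE1 splits the ribosome into its subunits after termination. Its FPKM was 14.84, 16.34 and 19.82 in NC and 18.39, 18.51 and 19.22 in the siRNA-labelled libraries. NC library 3 was the highest of all 6 libraries. edgeR gave a log2 fold change of 0.04 (SE 0.17, adjusted p = 0.906), and 0.24 without NC library 3 (SE 0.06, adjusted p = 0.00435). OTUD4 and ANAPC10 overlap ABCE1 on the opposite strand, with 6082 and 1199 counts against 8376. The strand setting of the counting is not given in the sources used here, so reads of the shared stretch cannot be assigned with certainty.

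ABCF3, the relative of a yeast protein that works with GCN1 in amino acid sensing, had 14.79, 12.78 and 8.65 FPKM in NC. It had 15.44, 14.60 and 13.93 FPKM in the siRNA-labelled libraries, which overlapped with NC. The log2 fold change was 0.21 (SE 0.16, adjusted p = 0.444), and 0.06 without NC library 3 (SE 0.07, adjusted p = 0.536). ABCF1, which binds an initiation factor, had 8.21 to 12.88 FPKM and ABCF2 had 5.67 to 7.67, both overlapping. The readthrough gene ABCF2-H2BK1 had 108 counts against 2701 for ABCF2.

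Summed by subfamily, 6 of the 7 sums were higher on average in the siRNA-labelled libraries and that of subfamily G was lower. Subfamily A summed to 57.01, 55.44 and 24.49 FPKM in NC and to 81.36, 80.72 and 79.44 in the siRNA-labelled libraries. This was a mean of 45.7 ± 18.3 (SD, n = 3) against 80.5 ± 0.978 (SD, n = 3). ABCA1 made up 86.5% of this sum, so the sum of the A subfamily repeats that gene.

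Subfamily D did not overlap either, with 13.51, 12.34 and 11.18 FPKM in NC and 15.50, 15.74 and 14.98 in the siRNA-labelled libraries. Subfamily B summed to 13.51 to 18.77 FPKM in NC and 18.98 to 20.88 in the siRNA-labelled libraries, and the gap between the groups was smaller than the spread within each. Subfamily G, of which ABCG2 was 94.0%, summed to 0.78, 0.69 and 1.13 FPKM in NC and to 0.33, 0.58 and 0.52.

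Subfamilies C, E and F overlapped between the groups. Without NC library 3 the log2 ratio of the sums fell from 0.25 to 0.0040 for C, from 0.82 to 0.52 for A and from 0.23 to 0.087 for F. It was 0.28 and then 0.15 for B, 0.32 and then 0.25 for D, 0.14 and then 0.26 for E, and -0.86 and then -0.62 for G. The direction stayed the same for all 7 sums, and for C the ratio without NC library 3 was near 0.

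**Figure D4:**
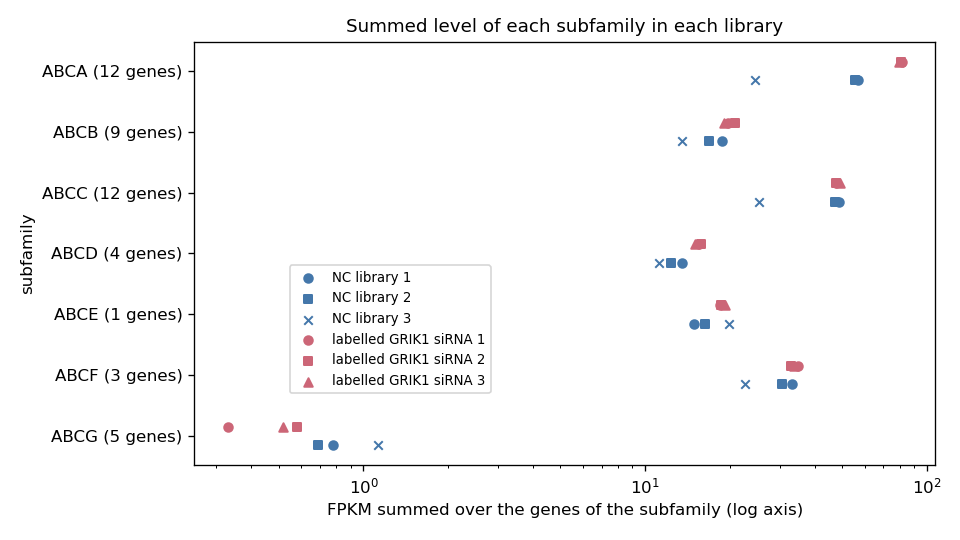
FPKM summed over the genes of each subfamily A to G in each library (log axis), blue for NC and red for the siRNA-labelled libraries. Subfamilies A, B and D are higher and G is lower in each siRNA-labelled library, while the sums of C, E and F overlap, and NC library 3 (cross) is the lowest NC library for 5 of the 7.

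The whole family summed to 186.9, 179.2 and 118.1 FPKM in NC and to 217.7, 216.6 and 216.1 in the siRNA-labelled libraries. The siRNA-labelled libraries lay within 2 FPKM of each other, and the NC libraries spread over far more. Without ABCA1 the sums were 138.5, 132.4 and 97.5 in NC and 147.2, 145.4 and 146.2 in the siRNA-labelled libraries.

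Genes that work beside the members were read from 91 listed partners, of which 83 were tested. With all 6 libraries 1 was called higher and 2 lower, against the 1.61% and 1.48% of all tested genes given above. GCN1, which senses stalled ribosomes and binds the relatives of ABCF3, was higher (log2 fold change 1.72, adjusted p = 0.032). TAP1, the family member that carries peptides into the endoplasmic reticulum for antigen presentation, was lower (-0.84, adjusted p = 0.0387). GSR, which regenerates glutathione, was lower (-1.05, adjusted p = 0.0447). All 3 kept an adjusted p under 0.05 without NC library 3, and leaving out any other library left 0 partners called. Without NC library 3, 13 partners were higher and 31 lower of the 83 tested, where 16.9% and 18.3% of all tested genes were called.

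Of the 15 genes of cholesterol and phospholipid handling, none was called with all 6 libraries in edgeR, 5 had an unadjusted p under 0.05 and DESeq2 called 2, against the shares of all tested genes given above. With NC library 3 left out, 3 were higher, APOE and SREBF2 among them, and NR1H2, MYLIP, SREBF1, NPC2 and PLTP were lower. NR1H2 is a sterol-sensing nuclear receptor that induces ABCA1, and its mean FPKM was 18.6 ± 0.785 (SD, n = 3) in NC and 14.02 ± 1.36 (SD, n = 3) in the siRNA-labelled libraries. MYLIP, a ubiquitin ligase induced by the same receptor, had 1.11 ± 0.131 and 0.607 ± 0.146 FPKM (SD, n = 3 each).

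Of the 12 genes of the xenobiotic and glutathione response 10 were tested. Without NC library 3, GCLC and GCLM, the subunits of the enzyme that starts glutathione synthesis, were higher, and KEAP1, AHR, HIF1A, GSTP1 and GSR were lower. All 6 genes of the peptide loading list, TAPBP, B2M, CALR, PDIA3, PSMB8 and PSMB9, were called lower without NC library 3, as were 18.3% of all tested genes. With all 6 libraries edgeR called none of them, and 3 had an unadjusted p under 0.05, as did 25.1% of all tested genes. DESeq2 called 2 of them, where it called 5.88% of all genes higher and 5.57% lower. TAP2 was tested and called in neither fit, and CFTR was not tested.

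Among the 13 genes of ribosome recycling and translation control, GCN1, EIF2AK4, HBS1L, EIF2S1 and EIF3J were higher without NC library 3. EIF2S2, EIF2S3, EIF2D, MCTS1 and DENR were lower in that fit. HBS1L and EIF2S1 changed sign between the fits. Their log2 fold changes were 0.22 and 0.27 without NC library 3, and -0.35 and -0.052 with all 6 libraries. In the fit without NC library 3 the peroxisomal enzymes HSD17B4 and CAT were lower, with 11 of 12 peroxisome genes tested. Of 16 tested genes of mitochondrial iron-sulfur and heme metabolism, TFRC was higher, and ISCA2, CPOX, PPOX, SLC25A28 and ACO1 were lower. TFRC and SLC25A28 changed sign as well, from 0.25 and -0.19 in that fit to -0.26 and 0.071 with all 6 libraries. Of the genes of lysosomal cobalamin handling, MMAB and MTRR were higher without NC library 3 and LMBRD1, the partner of ABCD4, was lower.

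The pore partners of the sulfonylurea receptors, KCNJ8 and KCNJ11, did not reach the level for testing. Of the pyrophosphate and ectonucleotide genes, 3 of 4 were tested and NT5E was lower without NC library 3.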

How the data were processed

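RNA of U87-MG cells was sequenced in 3 NC libraries and 3 libraries labelled GRIK1 siRNA, and each library was grouped by its label. The submitters' processing notes name cutadapt 1.9.1, HISAT2, HTSeq and the build GRCh38; the annotation release and strand setting are not given in the sources used here. The authors deposited whole-number counts per gene without normalization, and FPKM values which divide each count by the library total and by the gene's exonic size. This formula gave 100% of the deposited FPKM values to within 0.0051, and 0 columns of values were left unassigned. Total counts were 11099909 to 14006968 per library, and 0 entries named no gene.

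Counts were fitted with glmQLFit and glmQLFTest (edgeR 4.0.16 under R 4.3.3, a quasi-likelihood test) after TMM scaling, with no covariate and with Benjamini-Hochberg adjustment over the 15870 genes with a mean FPKM of at least 0.5. GRIK1 was compared by an exact permutation test on log2(FPKM + 1), with a pseudocount of 1. Alternatives were DESeq2 1.42.0, limma 3.58.1 on log2(FPKM + 1) or log2(FPKM + 0.1), RLE scaling, robust fitting, other filters, the replicate number as a block, a lowess length trend (span 0.3) and leaving out each library. The settings that combine leaving out NC library 3 with DESeq2 or the length trend, and the overlap count without it, were chosen after seeing the data. Python 3.11.15, numpy 2.4.6, pandas 2.3.3 and matplotlib 3.10.9 did the rest. The deposited columns of annotation were used for symbols and positions only.

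The members, the partner and marker lists and the tests were chosen with earlier results of these data known. Values per library are given for members called with all 6 libraries or without NC library 3, for the most abundant member of each subfamily, for members whose groups do not overlap with an absolute log2 fold change over 0.5, and for untested members with at least 10 counts and groups that do not overlap. Some genes that these rules take are not reported here by name. Values of other members were added after they were seen. Partners are named where called in either fit. No protein sequences were used here. Limits of counts cover counting error only.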

Additional observations from a re-analysis of the deposited data

How the results depend on the processing

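With all 6 libraries 2 members passed an adjusted p of 0.05 in edgeR. The count was 4 in DESeq2 and 4 with no filter, 1 with a mean FPKM of at least 1, 1 with the length trend, 1 in limma on log2(FPKM + 1) and 0 on log2(FPKM + 0.1). With NC library 3 left out it was 12 with the length trend and 9 in DESeq2. For these settings, other filters and limma no share of all tested genes is given. Counts of members or partners there are therefore no result about either list. In edgeR without NC library 3, 16.9% of all tested genes were called higher and 18.3% lower. Leaving out 1 library gave 0 to 11, with 11 for NC library 3 and 0 for each of the other 5. Past an absolute log2 fold change of 1 as well, the 1 member became 2 in DESeq2, 2 with no filter, 0 in limma on log2(FPKM + 0.1), 2 in DESeq2 without NC library 3 and 0 to 2 when 1 library was left out. The 3 partner genes became 12 in DESeq2, 2 with the length trend and 0 in limma on log2(FPKM + 0.1). With NC library 3 left out they were 44 with the length trend and 37 in DESeq2. They were 0 to 44 in edgeR when 1 library was left out. Members that did not overlap rose from 8 to 13 without NC library 3, where fewer NC values have to be cleared. The cause of the other changes was not tested. The mean of log2(FPKM + 1) over the genes gave differences of 0.16 for subfamily D and -0.062 for subfamily G.

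With the replicate block, 0 of the 24 tested members passed either limit (7 at an unadjusted p under 0.05) and 0 partners passed. In that fit 0 of all 15870 tested genes passed an adjusted p of 0.05, and 3324 had an unadjusted p under 0.05. The 0 is therefore not particular to the members. With the replicate block and the length trend the counts were also 0. Deviations of libraries with the same number correlated at -0.0703, 0.0441 and -0.0425. The NC library that stood apart weighs on the deviations of its whole group. These values therefore cannot decide whether libraries with the same number were paired.

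Over the 12 tested members that the rule for values per library takes, 178 fits under other settings kept the direction and the side of the threshold, 28 passed it newly, 18 lost it and 2 changed direction. Both of the last were ABCE1, at -0.081 without NC library 1 and -0.02 without NC library 2, against 0.24 without NC library 3. Counts under 10 limit what can be said of 15 members.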

Other observations

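Outside the members, 17 further genes carry an ABC symbol with a suffix, as pseudogenes, antisense RNAs or a readthrough gene. ABCF2-H2BK1 (108 counts over the 6 libraries) and ABCA11P (50 counts) were the best counted of them. ABCA11P had 7, 7 and 4 counts in NC, and 10, 13 and 9 under the GRIK1 siRNA label. ABCA17P had 12 counts, ABCC6P2 had 11, ABCC6P1 had 7 and ABCC5-AS1 had 2. The other 11 had 0 counts in each library, among them the pseudogene copies of ABCB10.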
